A study of Mus musculus with 22 samples.

Results

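Genes of glycolysis, of pyruvate handling and of the response to low oxygen were followed in mouse embryonic stem (ES) cells that kept or lost the GSK3 inhibitor CHIR99021 (CHIR), or that lost the Hippo coactivators YAP and TAZ. The set was chosen by function, with earlier results of these data known, and holds 33 genes. Of these, 31 had an array probe set assigned to that gene symbol alone, among 18194 genes measured that way. Gpi1 and Eno1 had none and were not analysed here. A gene with several such probe sets was represented by the one with the highest mean over all 22 arrays.

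The cells were of the Rex1GFPd2 reporter line, grown in Neurobasal and DMEMF12 with N2 and B27 supplements, and every group received the MEK inhibitor PD0325901 (PD). Control cells in 2i medium (PD with CHIR) gave 7 arrays, 4 with control siRNA 1 and 3 with control siRNA 2. Control cells in PD-only medium gave 7 arrays, split 4 and 3 between the same siRNAs. Cells in PD-only medium with siRNA against YAP and TAZ gave 8 arrays, 4 for each of 2 siRNA mixes. The PD-only cells left CHIR 24 hours after transfection, and all cells were harvested at 72 hours, so a difference between media compares continued CHIR with its withdrawal and with the accompanying change of medium. No YAP/TAZ siRNA cells in 2i were analysed here. Knockdown was partial: YAP/TAZ siRNA left 41.4% of the Yap1 signal and 48.7% of the Wwtr1 (TAZ) signal of PD-only control.

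Glycolysis splits glucose into pyruvate in the cytosol and yields ATP without oxygen. Pyruvate is then reduced to lactate and exported, or enters mitochondria, where pyruvate dehydrogenase turns it into acetyl-CoA unless pyruvate dehydrogenase kinases switch the enzyme off. The transcription factor HIF-1, whose alpha subunit is marked for destruction by oxygen-dependent prolyl hydroxylases, is known to raise transcription of most genes of this pathway under low oxygen. Naive ES cells are known to use both glycolysis and oxidative phosphorylation, and primed cells to rely more on glycolysis.

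The core of the HIF response element, ACGTG, was searched for on both strands of promoter windows that run from 250 bases before to 50 bases after each RefSeq start site (build GRCm38.p6). The palindrome CACGTG, which holds the motif on each strand, counts as 2 overlapping matches and is also the core of the E-box bound by MYC and USF proteins. Of the 31 measured genes 30 had a promoter in that table, Slc2a3 being the exception, with 43 start sites in all. The motif was present in 24 of these 43 windows (55.8%) and in 19.6% of all 32851 windows. Median GC content was 62.0% in the 43 windows and 52.7% in all, and the shares were not matched for it. The related pentamer GCGTG, also searched on both strands and able to share bases with an ACGTG match, was in 53.5% of the windows of these genes and in 32.4% of all. A match is a string in the window and not evidence of binding.

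The 6 promoters below belong to the genes whose opposite behaviour the results turn on: Slc2a1, Pfkfb3 and Slc16a3 were lower with YAP/TAZ siRNA than in PD-only control, and Ldha, Bnip3 and Egln3 were higher. All 6 were lower in 2i than in PD-only control, and all 6 were chosen from genes that hold the motif. The windows are Slc2a1 chr4:119108495-119108794 (plus strand), Pfkfb3 chr2:11502041-11502340 (minus strand), Slc16a3 chr11:120948817-120949116 (plus strand), Ldha chr7:46845554-46845853 (plus strand), Bnip3 chr7:138909457-138909756 (minus strand) and Egln3 chr12:54203825-54204124 (minus strand), each printed 5′ to 3′ on the gene's strand with ACGTG or its complement CACGT in capitals. Pfkfb3 and Ldha have 2 listed start sites each, and the window with more matches is shown.
Slc2a1: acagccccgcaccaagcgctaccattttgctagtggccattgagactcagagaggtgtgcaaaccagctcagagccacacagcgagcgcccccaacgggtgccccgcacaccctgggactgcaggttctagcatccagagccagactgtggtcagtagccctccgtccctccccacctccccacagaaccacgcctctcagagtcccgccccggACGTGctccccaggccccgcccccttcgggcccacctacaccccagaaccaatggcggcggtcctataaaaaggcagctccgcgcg
Pfkfb3: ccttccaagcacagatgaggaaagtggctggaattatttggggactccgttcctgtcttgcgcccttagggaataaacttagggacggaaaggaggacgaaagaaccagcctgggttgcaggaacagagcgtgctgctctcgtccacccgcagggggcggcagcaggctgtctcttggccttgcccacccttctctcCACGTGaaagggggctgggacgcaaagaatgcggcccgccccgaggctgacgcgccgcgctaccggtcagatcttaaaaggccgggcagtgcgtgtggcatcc
Slc16a3: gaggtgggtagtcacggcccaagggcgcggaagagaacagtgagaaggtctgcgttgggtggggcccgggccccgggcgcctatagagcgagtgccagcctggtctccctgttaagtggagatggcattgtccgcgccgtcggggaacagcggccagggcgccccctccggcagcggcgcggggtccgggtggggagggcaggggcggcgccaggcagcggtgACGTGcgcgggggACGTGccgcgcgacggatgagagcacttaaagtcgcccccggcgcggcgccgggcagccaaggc
Ldha: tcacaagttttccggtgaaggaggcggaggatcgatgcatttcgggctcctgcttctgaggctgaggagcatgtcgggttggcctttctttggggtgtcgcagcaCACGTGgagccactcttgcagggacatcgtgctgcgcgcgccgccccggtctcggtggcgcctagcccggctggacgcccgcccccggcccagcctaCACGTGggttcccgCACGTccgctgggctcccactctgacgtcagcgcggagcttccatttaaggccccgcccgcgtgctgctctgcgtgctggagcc
Bnip3: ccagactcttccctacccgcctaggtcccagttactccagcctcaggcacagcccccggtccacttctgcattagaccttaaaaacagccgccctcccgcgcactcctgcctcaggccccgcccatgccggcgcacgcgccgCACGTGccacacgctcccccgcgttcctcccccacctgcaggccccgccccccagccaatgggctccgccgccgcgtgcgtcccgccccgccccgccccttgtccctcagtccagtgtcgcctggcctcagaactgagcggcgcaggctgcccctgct
Egln3: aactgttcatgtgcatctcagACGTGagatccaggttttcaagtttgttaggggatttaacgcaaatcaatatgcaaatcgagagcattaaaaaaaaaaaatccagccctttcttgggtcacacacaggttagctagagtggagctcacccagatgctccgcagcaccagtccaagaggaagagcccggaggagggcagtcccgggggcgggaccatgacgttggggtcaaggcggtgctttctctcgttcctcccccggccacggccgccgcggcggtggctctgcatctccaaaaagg

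In these windows Ldha had 5 matches, Pfkfb3, Slc16a3 and Bnip3 had 2 each, and Slc2a1 and Egln3 had 1 each. Counted by gene, with a match at any start site, 21 of the 30 genes held the motif, as did 21.8% of all 27025 genes with promoters. The motif was found at 9 of the 11 called lower in 2i and higher with YAP/TAZ siRNA. It was at all 6 called lower in both comparisons, where Hif1a counts by its brightest probe set only. The motif was at 2 of the 5 called higher in both. It was at 0 of 1 called higher in 2i and lower with YAP/TAZ siRNA, and at 4 of the 7 not called in both.

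Expression was compared as log2 values, and a gene was called when limma's Benjamini-Hochberg adjusted p, taken over all 18194 genes, was at or below 0.05. Of the 31 genes, 18 were called lower and 7 higher in 2i control than in PD-only control. Among all genes 26.7% were called lower and 31.3% higher in that comparison. By level, 27 of the 31 genes lay above the median of all genes. With genes below that median left out, 7419 of 9097 were called between the media, against 10559 of all 18194. Calls were thus more frequent among brighter genes than among all genes. Of the 27 kept there, 7 were called higher and 17 lower in 2i. With YAP/TAZ siRNA, 19 of the 31 rose and 9 fell against PD-only control, where 35.5% of all genes rose and 26.3% fell. The YAP/TAZ siRNA arm was also set against 2i control directly, and there 24 of the 31 genes were higher and 5 lower, against 25.6% and 22.8% of all genes. The median log2 difference of the 31 genes was -0.15 in 2i against PD-only control, 0.23 with YAP/TAZ siRNA against PD-only control and 0.38 with YAP/TAZ siRNA against 2i. Over all genes these medians were 0.04, 0.06 and 0.02. The first 2 comparisons share the PD-only control arrays and the third reuses both other arms, so the 3 sets of values are not independent of each other.

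The arms separated completely for many of the genes. All 2i arrays lay below all PD-only control arrays for 14 of the 31 genes (19.0% of all genes) and above them for 6 (18.7%). All YAP/TAZ siRNA arrays lay above all PD-only control arrays for 18 (21.1%) and below them for 7 (19.3%). Against 2i control they lay above for 20 (14.9%) and below for 3 (13.3%). Most of these differences were small: 5 of 31 genes were called with a change of 2-fold or more with CHIR (5.81% of all genes in either direction), 5 with YAP/TAZ siRNA (6.36%) and 3 between YAP/TAZ siRNA and 2i (1.51%).

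**Figure D1:**
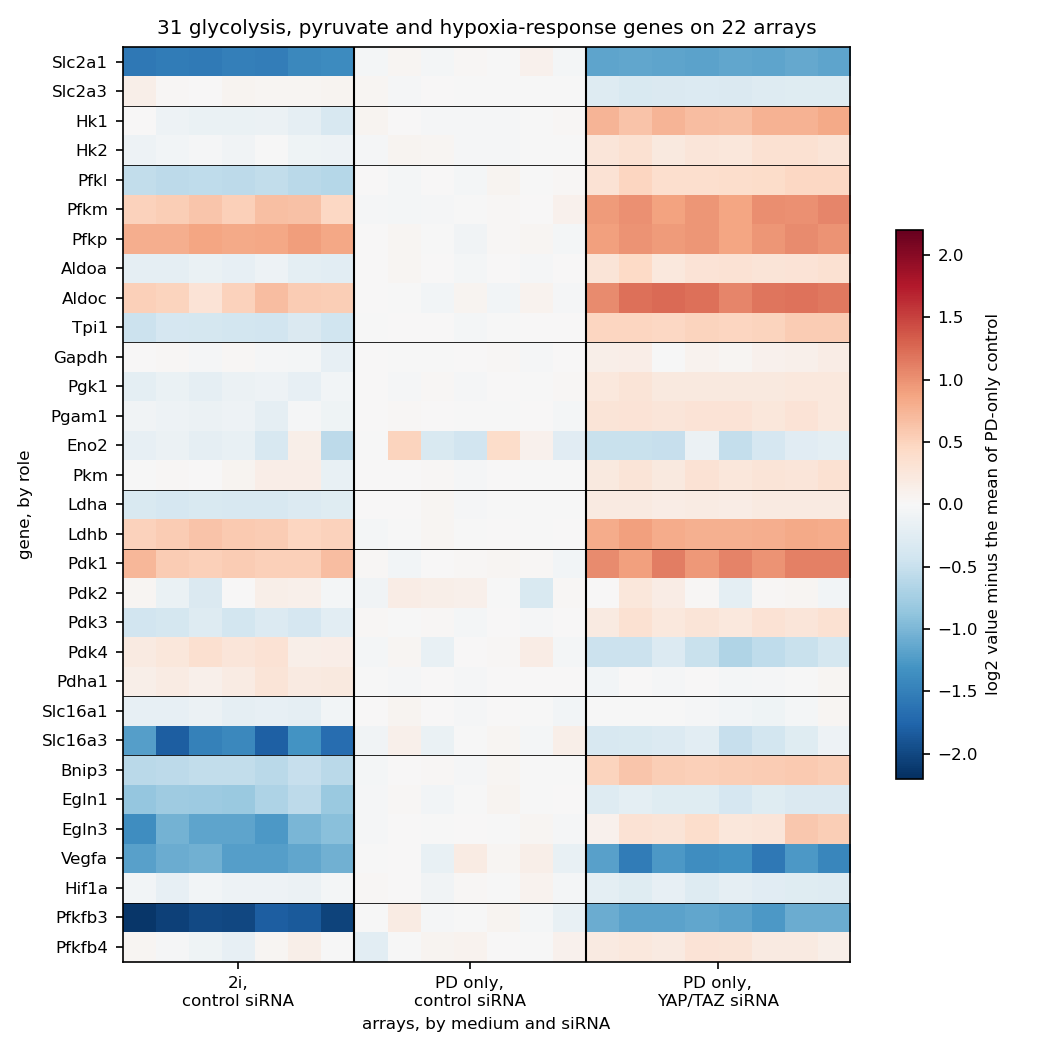
Heat map of the 31 genes (rows, grouped by role with thin lines between roles) on the 22 arrays (columns, by medium and siRNA), coloured by the log2 value minus the gene's mean in PD-only control. Slc2a1, Pfkfb3 and Vegfa are blue on both sides of the PD-only control block, whereas Pfkl, Tpi1, Bnip3 and Egln3 are blue in 2i and red with YAP/TAZ siRNA.

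Glucose enters the cell through facilitative transporters, of which 2 were measured. Slc2a1, the transporter most widely expressed in proliferating cells, had log2 values of 12.16 to 12.34 in 2i (median 12.21, n = 7), 13.68 to 13.82 in PD-only control (median 13.72, n = 7) and 12.55 to 12.60 with YAP/TAZ siRNA (median 12.57, n = 8). The 3 arms did not overlap, with PD-only control far above the others and 2i lowest. The level was 2.81-fold lower in 2i than in PD-only control (log2 difference -1.49 ± 0.03, SE, limma's adjusted p = 2.43e-20) and 2.23-fold lower with YAP/TAZ siRNA (-1.16 ± 0.03, adjusted p = 7.26e-19). Its 3 probe sets differed by -1.49, -1.80 and about -2.2 with CHIR and by -1.16 to -1.67 with YAP/TAZ siRNA, so the brightest one, used here, gave the smallest change. Slc2a3, the high-affinity transporter of neurons and early embryos, ranged from 13.88 to 14.00 in 2i, 13.85 to 13.91 in PD-only control and 13.53 to 13.61 with YAP/TAZ siRNA. It fell by 0.30 ± 0.02 with YAP/TAZ siRNA, every array lying below every control array of either medium. Its other probe sets fell by 0.38, 0.66 and 0.82, so the brightest one again gave the smallest change. Between the media Slc2a3 differed by 0.05 ± 0.02, which did not pass the test (adjusted p = 0.0511). It passed without replicate B (adjusted p = 0.0372) or C (0.0288) of control siRNA 1 in 2i, or without replicate A of control siRNA 1 in PD-only medium (0.0416). It also passed under 6 other alternatives, with differences of 0.05 to 0.08 and adjusted p of 0.00502 to 0.0461. Of its other probe sets, 1 was called higher in 2i (0.09, adjusted p = 0.0105). The dimmer ones differed by -0.08 and -0.14, neither called.

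Pfkfb3 and Pfkfb4 make the allosteric activator of phosphofructokinase, and Pfkfb3 has the higher kinase activity of the family. Pfkfb3 ranged from 6.69 to 7.02 in 2i (median 6.83), 8.68 to 9.01 in PD-only control (median 8.83) and 7.57 to 7.75 with YAP/TAZ siRNA (median 7.67). Like Slc2a1 it was highest in PD-only control, lowest in 2i and between them with YAP/TAZ siRNA, without overlap. The difference of -1.97 ± 0.05 between 2i and PD-only control, 3.91-fold, was the widest among the 31 genes in the 3 comparisons. YAP/TAZ siRNA lowered it by 2.21-fold (adjusted p = 5.8e-15). A second, dimmer probe set of Pfkfb3 differed by -0.16 and -0.06, the latter not called. Pfkfb4 differed by -0.01 ± 0.05 between the media and rose by 0.22 ± 0.04 with YAP/TAZ siRNA, a call lost with the Actb value as a covariate although the difference was 0.19 (adjusted p = 0.0857).

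Vegfa, the angiogenic growth factor and a HIF target, was the other gene that changed by 2-fold or more in both comparisons. It ranged from 6.75 to 6.92 in 2i, 7.80 to 8.15 in PD-only control and 6.39 to 6.77 with YAP/TAZ siRNA. Both other arms lay below PD-only control, by 1.14 ± 0.07 for 2i and 1.37 ± 0.06 for YAP/TAZ siRNA, and they overlapped each other. The difference between YAP/TAZ siRNA and 2i was -0.23 ± 0.06 (adjusted p = 0.00445). With siRNA 1 alone it was -0.21 (adjusted p = 0.0669), and with the poly-A spike value of each array as a covariate -0.16 (adjusted p = 0.393). That spike value was 8.820 to 9.248 in 2i, 8.168 to 8.675 in PD-only control and 8.268 to 8.627 with YAP/TAZ siRNA. As 2i overlapped neither other arm, a fit with this covariate cannot separate the spike value from the arm in comparisons with 2i. The second probe set of Vegfa fell by 0.26 in 2i and by 0.25 with YAP/TAZ siRNA.

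Most fibroblast markers, some trophoblast and primitive endoderm markers and a measure of RNA quality moved with the same arm in which Slc2a1, Pfkfb3 and Vegfa were high. All 8 ES cell markers were above the median level of all genes, and they too differed between the arms: 6 were higher and 2 lower in 2i (median 0.35), and 4 rose and 2 fell with YAP/TAZ siRNA. Over the list of 10 fibroblast markers the mean level was 4.42 to 4.59 in the 2i arrays, 5.92 to 6.12 in PD-only control and 4.47 to 4.62 with YAP/TAZ siRNA, with 8 of 10 called lower in 2i and 6 with YAP/TAZ siRNA. The widest difference was that of Col1a2, a collagen I chain, at -4.56 ± 0.08 in 2i and -4.50 ± 0.08 with YAP/TAZ siRNA, and Col1a1, Postn and Col3a1 were also lower by 2-fold or more in both. Lum and Fap, at 3.13 and 3.07 in PD-only control, were not called. The 8 measured trophoblast markers averaged 6.08 to 6.14, 7.02 to 7.10 and 6.15 to 6.28, and the 8 primitive endoderm markers 4.72 to 4.85, 5.38 to 5.49 and 4.66 to 4.86. Of these, 4 of 8 trophoblast markers were lower and 2 higher in each comparison with PD-only control, and 4 of 8 primitive endoderm markers were lower in 2i and 3 with YAP/TAZ siRNA. These counts stand beside 26.7% of all genes lower and 31.3% higher in 2i, and 26.3% and 35.5% with YAP/TAZ siRNA. The widest differences were those of the keratin Krt7 (-4.57 and -4.33) and of Dab2 (-3.05 and -3.57), on which the list means lean. Median differences were smaller, at -0.30 and -0.19 for the trophoblast markers and -0.19 and -0.09 for primitive endoderm. In the other direction, 1 trophoblast marker was higher by 1.07 with YAP/TAZ siRNA. The Actb 3′ minus 5′ value was 0.66 to 0.75 in PD-only control, 0.87 to 1.19 in 2i and 0.88 to 1.07 with YAP/TAZ siRNA. The part of other cell types in these results was not tested, and in bulk RNA a shift in the mix of cells and a shift in RNA per cell cannot be told apart. With the Actb value as a covariate, Slc2a1, Pfkfb3 and Vegfa kept their calls in both comparisons with PD-only control. That value did not overlap between PD-only control and either other arm. Neither a kept nor a lost call with this covariate, for any of the genes, can therefore separate RNA quality from the arm.

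**Figure D2:**
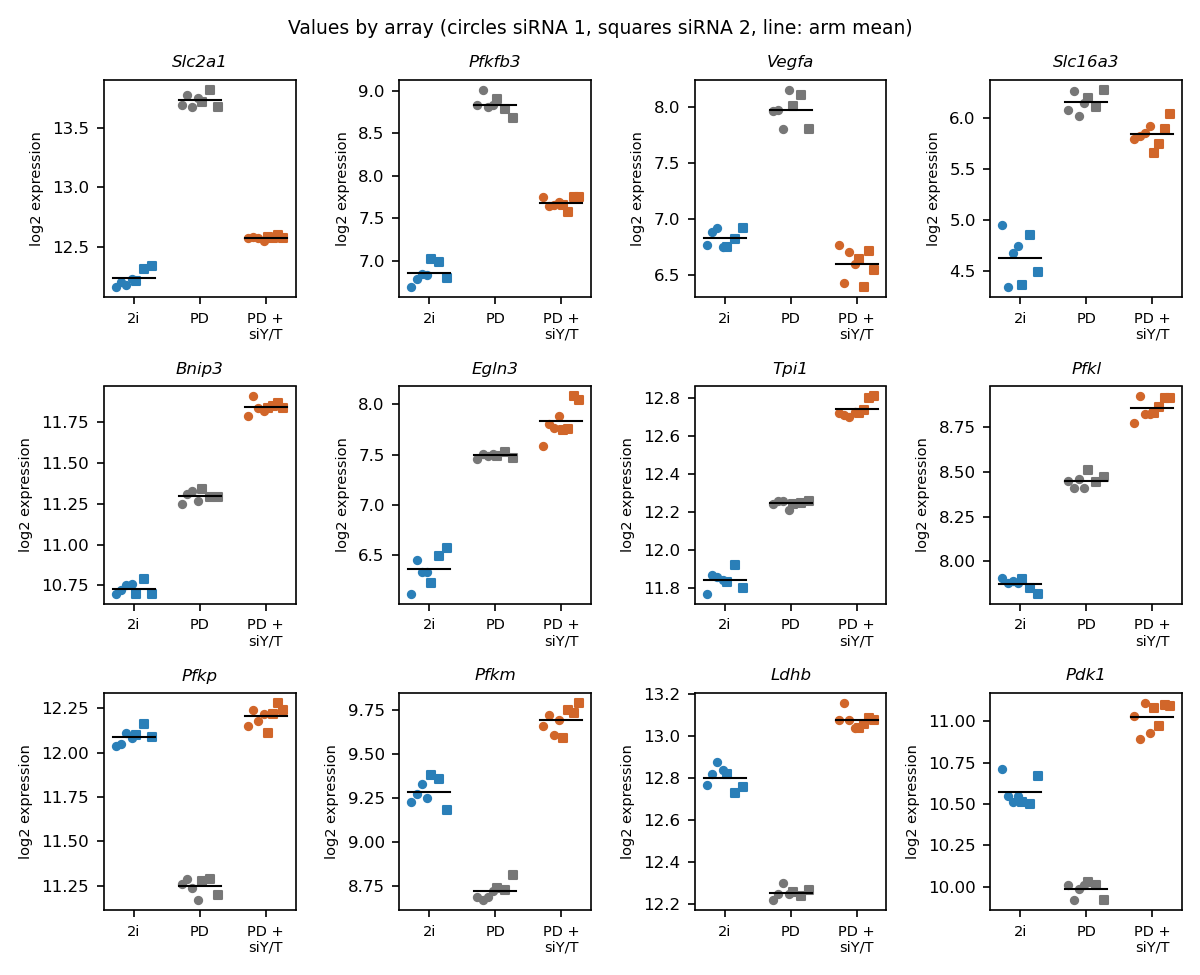
Log2 expression of 12 of the genes by array (circles siRNA 1, squares siRNA 2, line: arm mean) in 2i control (2i), PD-only control (PD) and PD-only YAP/TAZ siRNA (PD + siY/T); each panel has its own scale. In the top row PD-only control is highest, in the middle row the arms climb from 2i to YAP/TAZ siRNA, and in the bottom row PD-only control is lowest.

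The enzymes from hexokinase to lactate dehydrogenase were represented by 15 of 17 listed genes. With YAP/TAZ siRNA 14 of the 15 rose against PD-only control and 1, Eno2, fell, where 35.5% of all genes rose and 26.3% fell. Against 2i control the same arm was higher in 14 and not called in 1, again Eno2 (25.6% of all genes higher, 22.8% lower). In 2i, 8 of the 15 were lower than in PD-only control, 4 were higher and 3 were not called (26.7% of all genes lower, 31.3% higher). Of the 15 genes, 14 lay above the median level of all genes. Where probe sets whose names mark them as shared between transcripts or prone to cross-hybridise were left out, 24 of the 31 genes were still measured and 12 rose with YAP/TAZ siRNA. The genes lost there were Hk1, Aldoa, Tpi1, Pgam1, Eno2, Ldha and Ldhb, all among the 15 enzymes, so their changes were not retested. Aldoc was measured there but not called. The 12 include Pdk1, Pdk3, Bnip3, Egln3 and Pfkfb4, which are not among the 15.

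Hexokinases trap glucose by phosphorylation. Hk1, the housekeeping form, ranged from 8.20 to 8.55 in 2i, 8.51 to 8.61 in PD-only control and 9.17 to 9.37 with YAP/TAZ siRNA. YAP/TAZ siRNA arrays stood apart above both control arms, which overlapped. Hk1 rose by 0.73 ± 0.04 with YAP/TAZ siRNA (1.66-fold, adjusted p = 2.47e-13). Its difference of -0.16 ± 0.04 between the media lost its call with the Actb value as a covariate (-0.02, adjusted p = 0.864) and with siRNA 1 alone (adjusted p = 0.104). Hk2, the inducible form and a HIF target, rose by 0.29 ± 0.03 with YAP/TAZ siRNA. Its difference of -0.07 ± 0.03 between the media was lost under 7 alternatives besides the left-out arrays, with adjusted p of 0.0504 to 0.802 for 6 of them, the other being a call at an adjusted p of 0.01. Leaving out 1 array also ended that call (adjusted p of 0.0543 to 0.0791) for 7 arrays: in 2i, replicate A of control siRNA 1 and B and C of control siRNA 2, and in PD-only medium, B and C of each control siRNA.

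Phosphofructokinase commits sugar to glycolysis, and its 3 subunit genes did not behave alike. Pfkl, the liver-type subunit, ranged from 7.82 to 7.91 in 2i, 8.41 to 8.51 in PD-only control and 8.77 to 8.92 with YAP/TAZ siRNA. It climbed across the arms without overlap, lower in 2i by 0.58 ± 0.03 and higher with YAP/TAZ siRNA by 0.40 ± 0.02. Pfkm, the muscle-type subunit, ranged from 9.18 to 9.38, 8.67 to 8.81 and 9.59 to 9.79 in the same order of arms. Pfkp, the platelet-type subunit, ranged from 12.04 to 12.16, 11.17 to 11.29 and 12.11 to 12.28. PD-only control was the lowest arm for both, with Pfkm higher by 0.56 ± 0.04 in 2i and 0.97 ± 0.03 with YAP/TAZ siRNA, and Pfkp by 0.84 ± 0.03 and 0.96 ± 0.03. All 3 probe sets of Pfkp were called higher in both comparisons. Set against 2i directly, YAP/TAZ siRNA gave 0.11 ± 0.03 for the brightest probe set of Pfkp and -0.56 for the next, both called, and the mean of all 3 gave -0.08 (adjusted p = 0.102).

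Aldolase and triose phosphate isomerase produce and interconvert the triose phosphates. Aldoa, the main aldolase of most cells, ranged from 13.15 to 13.27 in 2i, 13.34 to 13.42 in PD-only control and 13.62 to 13.82 with YAP/TAZ siRNA. Tpi1 ranged from 11.77 to 11.92, 12.21 to 12.26 and 12.70 to 12.81. Both climbed across the arms without overlap, by 0.50 ± 0.03 and 0.90 ± 0.02 from 2i to YAP/TAZ siRNA. Aldoc, the brain-type aldolase, followed Pfkm and Pfkp instead, at 7.34 to 7.72, 6.98 to 7.11 and 8.08 to 8.28. It rose 2.24-fold with YAP/TAZ siRNA (1.16 ± 0.04, adjusted p = 5.7e-16) and was higher in 2i by 0.53 ± 0.04. A second Aldoc probe set averaged 3.11 with YAP/TAZ siRNA and was not called in any comparison; where shared or cross-hybridising probe sets were left out it was the only one and gave -0.04 with YAP/TAZ siRNA (adjusted p = 0.504).

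The enzymes after triose phosphate changed less. Pgk1, the first ATP-yielding enzyme, ranged from 13.45 to 13.60 in 2i, 13.64 to 13.69 in PD-only control and 13.87 to 13.94 with YAP/TAZ siRNA. The arms did not overlap, although Pgk1 moved by only -0.15 ± 0.02 with CHIR and 0.23 ± 0.02 with YAP/TAZ siRNA. Pgam1, the mutase of the next step, differed by -0.11 ± 0.03 and 0.28 ± 0.02, the former not called with siRNA 2 alone (-0.09, adjusted p = 0.0517). Pkm, which makes pyruvate, rose by 0.27 ± 0.04 with YAP/TAZ siRNA and differed by 0.04 ± 0.04 between the media (adjusted p = 0.451), though by 0.23 with the Actb value as a covariate (adjusted p = 0.000371) and by 0.09 without replicate C of control siRNA 2 in 2i (adjusted p = 0.00491). Gapdh is measured here only by the array's own control probe sets. Its 5′ set, used here, rose by 0.09 ± 0.03 with YAP/TAZ siRNA, its 3′ set by 0.15 and its middle set by 0.18, and none of the 3 was called between the media. The rise of the 5′ set lost its call after a further quantile normalization (0.05, adjusted p = 0.124) and with siRNA 1 alone (adjusted p = 0.0659). Eno2, the neuronal enolase, was dim, at 4.27 to 5.17 in PD-only control and 4.16 to 4.56 with YAP/TAZ siRNA, and its fall of 0.38 ± 0.13 lost its call at a like size with siRNA 1 alone (-0.34, adjusted p = 0.112), with siRNA 2 alone (-0.43, adjusted p = 0.0652) and without replicate A of control siRNA 2 in PD-only medium (-0.30, adjusted p = 0.0553). With the Actb covariate it shrank to -0.05 (adjusted p = 0.885). Between the media Eno2 differed by -0.23 ± 0.13 (adjusted p = 0.151), and by -0.33 without replicate B of control siRNA 2 in 2i (adjusted p = 0.0403).

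The subunits of lactate dehydrogenase, which interconverts pyruvate and lactate, also differed from each other. Ldha, which favours lactate production, ranged from 12.58 to 12.68 in 2i, 12.93 to 12.99 in PD-only control and 13.12 to 13.16 with YAP/TAZ siRNA. Ldhb, the heart-type subunit, ranged from 12.73 to 12.88, 12.22 to 12.30 and 13.04 to 13.16. Thus PD-only control was the middle arm for Ldha and the lowest for Ldhb, with no overlap in either. Ldha was lower in 2i by 0.33 ± 0.02 and higher with YAP/TAZ siRNA by 0.19 ± 0.02. Ldhb was higher in 2i by 0.54 ± 0.03 and with YAP/TAZ siRNA by 0.82 ± 0.02 (1.77-fold), and its 4 probe sets were all called higher in both comparisons.

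**Figure D3:**
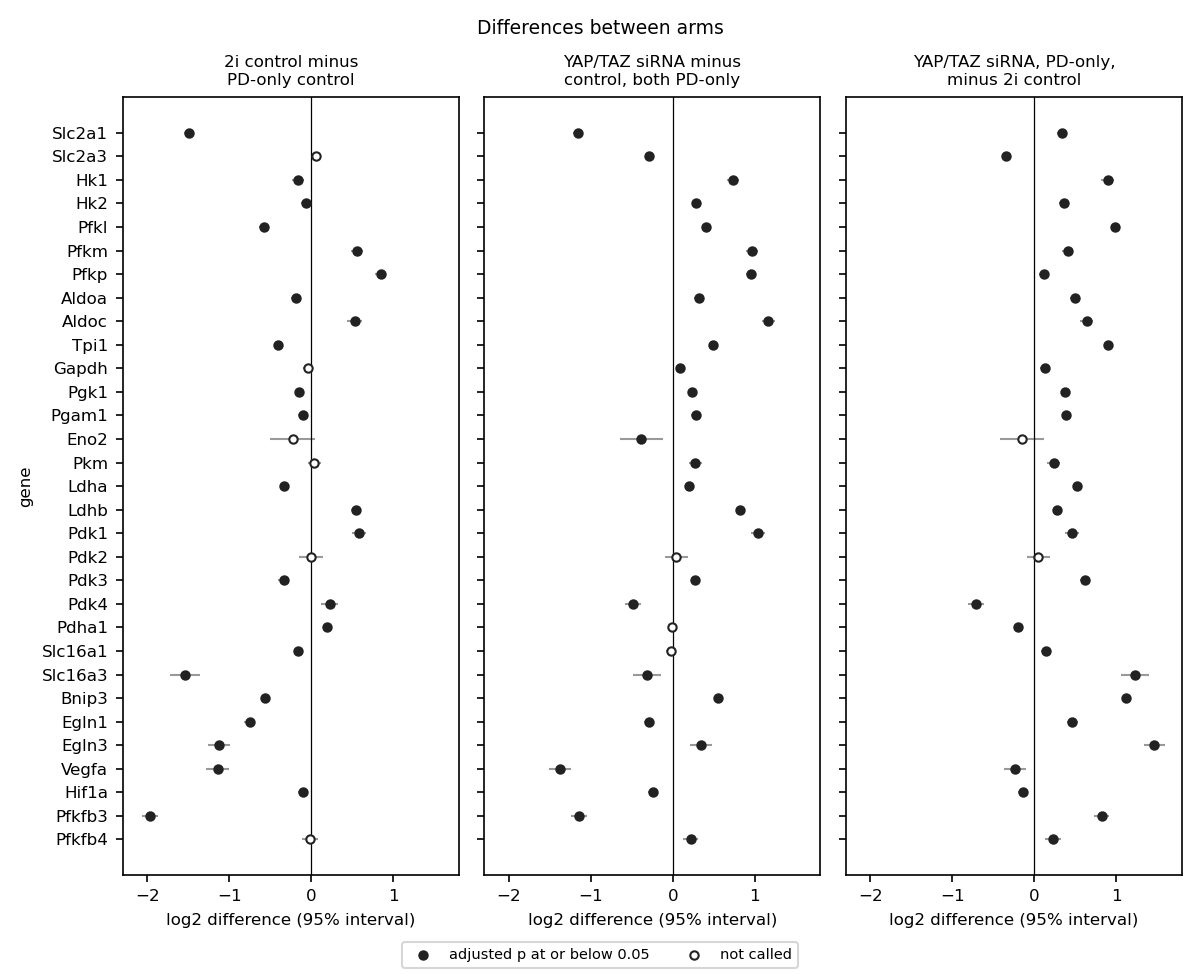
Log2 differences of the 31 genes in 3 comparisons (points, with 95% intervals of the limma fit as grey bars, often hidden by the point); filled points were called at an adjusted p of 0.05 or below. Most glycolytic enzymes lie to the right of 0 with YAP/TAZ siRNA in the middle and right panels, whereas Slc2a1, Vegfa and Pfkfb3 lie furthest left in the middle panel.

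Pyruvate dehydrogenase kinases, which block pyruvate entry to the citric acid cycle, each had their own pattern. Pdk1, a HIF target, ranged from 10.50 to 10.71 in 2i, 9.92 to 10.03 in PD-only control and 10.89 to 11.11 with YAP/TAZ siRNA. It was lowest in PD-only control, 2.06-fold higher with YAP/TAZ siRNA (1.04 ± 0.04, adjusted p = 4.53e-15) and higher by 0.59 ± 0.04 in 2i. Its 3 brighter probe sets rose by 1.04, 1.08 and 0.42 with YAP/TAZ siRNA. Against 2i the first 2 were higher by 0.46 and 0.59, and the other was lower by 0.07 (adjusted p = 0.033). Pdk3 ranged from 8.95 to 9.13, 9.33 to 9.40 and 9.57 to 9.70, climbing across the arms. Pdk4, which is known to be induced when fatty acids are burned, was the only 1 of the 31 genes called higher in 2i (0.23 ± 0.05) and lower with YAP/TAZ siRNA (-0.49 ± 0.05), and its difference between the media lost its call with siRNA 2 alone (0.14, adjusted p = 0.14) and with the poly-A covariate, where it was still 0.20 (adjusted p = 0.0558). Pdk2 was the dimmest of the 31, at 3.49 to 4.07 over all arrays, and was not called in any comparison. Pdha1, the enzyme's catalytic subunit on the X chromosome, was higher by 0.19 ± 0.02 in 2i and differed by -0.01 ± 0.02 with YAP/TAZ siRNA (adjusted p = 0.708). A second probe set of Pdha1 was higher by 0.18 in 2i and was called higher with YAP/TAZ siRNA (0.09, adjusted p = 0.0381).

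The monocarboxylate transporters carry lactate and pyruvate across the membrane. Slc16a3, the form of highly glycolytic cells and a HIF target, ranged from 4.34 to 4.95 in 2i, 6.02 to 6.28 in PD-only control and 5.66 to 6.04 with YAP/TAZ siRNA. It was 2.91-fold lower in 2i (-1.54 ± 0.09, adjusted p = 2.3e-12), where it was dim, and RMA compresses differences of dim probe sets. With YAP/TAZ siRNA it fell by 0.32 ± 0.08, with arrays that overlapped those of the control, and this call was lost with the Actb value as a covariate (-0.25, adjusted p = 0.225). Slc16a1, the widely expressed form, was lower by 0.16 ± 0.03 in 2i and differed by -0.02 ± 0.03 with YAP/TAZ siRNA (adjusted p = 0.425).

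By their brightest probe sets all 5 hypoxia-response genes were lower in 2i than in PD-only control, and with YAP/TAZ siRNA 2 rose and 3 fell, with Hif1a resting on 1 of 4 probe sets. Among all genes 26.7% were lower in 2i, and 35.5% rose and 26.3% fell with YAP/TAZ siRNA. Bnip3, a mitophagy receptor, ranged from 10.70 to 10.79 in 2i, 11.25 to 11.34 in PD-only control and 11.79 to 11.91 with YAP/TAZ siRNA. Egln3, a prolyl hydroxylase that is itself a HIF target, ranged from 6.12 to 6.57, 7.46 to 7.53 and 7.59 to 8.08. Both climbed across the arms without overlap, and the step from 2i to YAP/TAZ siRNA was 2.16-fold for Bnip3 and 2.76-fold for Egln3. These 2 and Slc16a3 (2.33-fold) were the genes that differed by 2-fold or more between YAP/TAZ siRNA and 2i. A second, dimmer probe set of Egln3 differed by 0.75 (log2) in that comparison, less than 2-fold, and by -0.48 between the media. Egln1, the main prolyl hydroxylase of HIF-1 in normal oxygen, ranged from 7.52 to 7.79 in 2i and 8.31 to 8.43 in PD-only control, and reached 8.14 with YAP/TAZ siRNA (median 8.09). Unlike Egln3 it was highest in PD-only control, lower by 0.75 ± 0.03 in 2i and by 0.29 ± 0.03 with YAP/TAZ siRNA.

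For Hif1a itself, the alpha subunit of HIF-1, the probe sets disagreed. The brightest ranged from 11.74 to 11.88 in 2i, at 11.85 or more in PD-only control (median 11.94) and from 11.64 to 11.74 with YAP/TAZ siRNA, lower by 0.11 ± 0.03 and 0.24 ± 0.03 than in PD-only control. The next differed by 0.03 and 0.07 (neither called), and another was higher in 2i by 0.28 (adjusted p = 0.00596) and differed by 0.02 with YAP/TAZ siRNA (adjusted p = 0.879). With the mean of its 4 probe sets Hif1a differed by 0.06 between the media (adjusted p = 0.123) and by 0.00 with YAP/TAZ siRNA (adjusted p = 0.921), so no direction is given for this gene. HIF-1 alpha is controlled largely at the level of the protein, which was not measured.

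**Figure D4:**
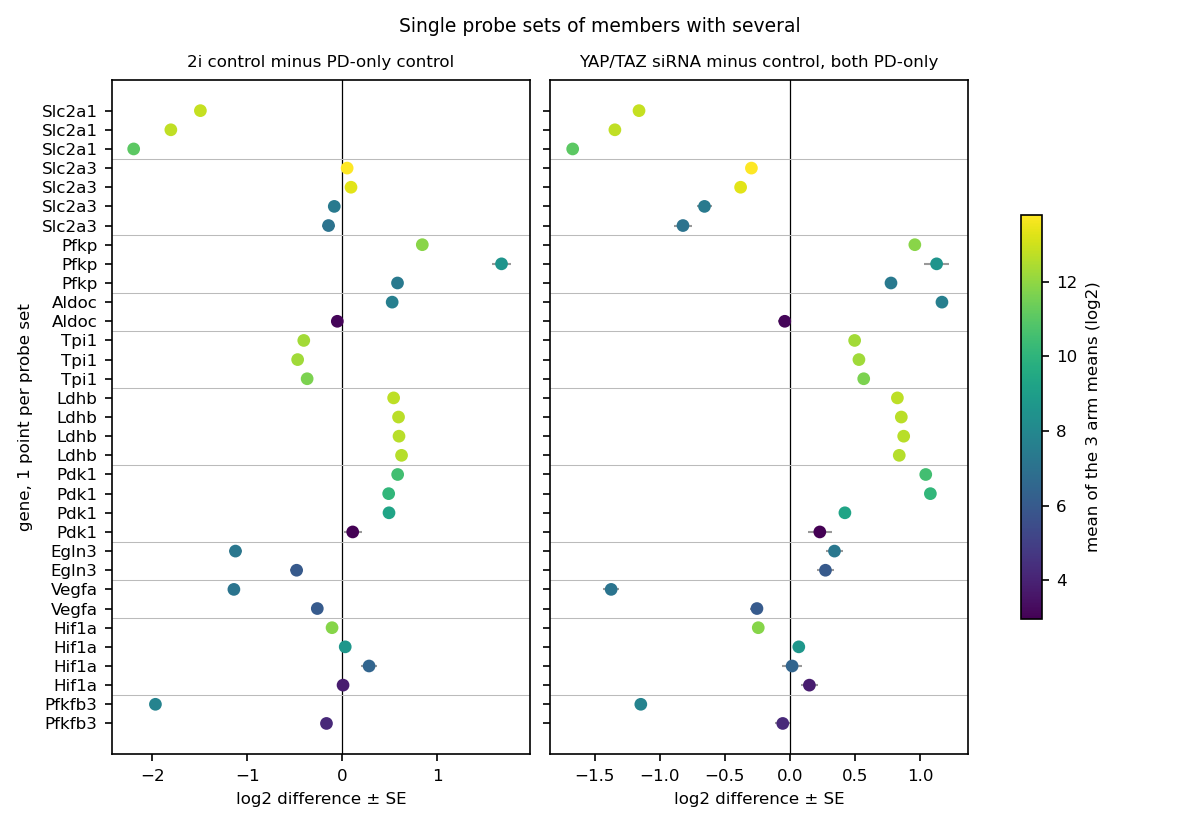
Log2 differences (± SE) of single probe sets for 11 of the genes with several, 1 point per probe set, ordered by level within a gene and coloured by mean level. The points of Slc2a1, Tpi1 and Ldhb lie on 1 side of 0, those of Hif1a lie on both sides, and the dimmest sets of Aldoc and Pfkfb3 lie near 0.

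Of the 19 genes with several probe sets, 10 had all of them called the same way between the media, 14 with YAP/TAZ siRNA against PD-only control and 13 with YAP/TAZ siRNA against 2i. Probe sets of 1 gene were called in opposite directions for Hif1a between the media, for none with YAP/TAZ siRNA against PD-only control, and for Pfkp and Pdk1 with YAP/TAZ siRNA against 2i.

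The siRNAs of each kind were compared too. For none of the 18194 genes did the difference between media pass limma's test of a difference between the control siRNAs (0.00% called; 949, or 5.22%, at an unadjusted p of 0.05, of which 2 were Pdk2 and Pfkfb3), and none passed for the YAP/TAZ mixes (0.00% called; 648, or 3.56%, at an unadjusted p of 0.05, none of the 31). Limma's trended and robust variance gave 0 calls in both cases too. Among the 31 genes the mixes differed by -0.15 to 0.16 on the log2 scale.

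The counts of further genes below are to be read against all genes, of which 31.3% were higher and 26.7% lower in 2i, and 35.5% rose and 26.3% fell with YAP/TAZ siRNA. Of 25 other glycolytic and gluconeogenic genes, 8 were higher and 8 lower in 2i, and 12 rose and 7 fell with YAP/TAZ siRNA, near the shares of all genes in 2i. Eno3, the muscle enolase, differed by -3.05 ± 0.03 in 2i and -1.69 ± 0.03 with YAP/TAZ siRNA, the former a larger difference than in any of the 31 genes between the media. Pck2, the mitochondrial enzyme that makes phosphoenolpyruvate and a target of the ATF4 stress pathway, was higher by 0.27 ± 0.04 in 2i and fell by 1.11 ± 0.04 with YAP/TAZ siRNA. Fbp2, a fructose bisphosphatase, was higher by 0.70 ± 0.04 and 0.78 ± 0.04, Fbp1 differed by -0.63 ± 0.05 and -0.82 ± 0.05, and Tigar, which lowers the same allosteric activator that Pfkfb3 makes, rose by 0.88 ± 0.03 with YAP/TAZ siRNA.

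In the pentose phosphate pathway, which makes NADPH and ribose, 4 of 7 genes rose with YAP/TAZ siRNA and 1 fell, and 3 were higher and 1 lower in 2i, where 31.3% of all genes were higher and 26.7% lower (35.5% and 26.3% with the siRNA). Pgd, its second dehydrogenase, rose by 0.99 ± 0.04 and Rpe by 0.89 ± 0.03 with YAP/TAZ siRNA. Pgls differed by -0.59 ± 0.03 in 2i and -0.31 ± 0.03 with YAP/TAZ siRNA. Of 9 genes for pyruvate entry to mitochondria, 6 were higher and 1 lower in each comparison with PD-only control. Mpc1, a subunit of the mitochondrial pyruvate carrier, rose by 1.25 ± 0.02 with YAP/TAZ siRNA and was higher by 0.10 ± 0.03 in 2i. Pdp2, a phosphatase that reactivates pyruvate dehydrogenase, was higher by 0.97 ± 0.05 in 2i and 0.91 ± 0.05 with YAP/TAZ siRNA, and Pcx (pyruvate carboxylase) rose by 0.62 ± 0.04 with the latter.

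Among 9 genes of the HIF machinery, 2 were higher and 3 lower in 2i, and 5 rose and 3 fell with YAP/TAZ siRNA, against 31.3% and 26.7%, and 35.5% and 26.3%, of all genes. Cited2, which competes with HIF-1 for its coactivators, differed by -1.32 ± 0.03 in 2i and -1.89 ± 0.03 with YAP/TAZ siRNA. Vhl, which targets hydroxylated HIF alpha for destruction, rose by 0.37 ± 0.03 with the siRNA. Of 26 other HIF targets 6 were higher and 13 lower in 2i, and 14 rose and 8 fell with YAP/TAZ siRNA, while 19 were higher and 3 lower with YAP/TAZ siRNA than in 2i, where 25.6% of all genes were higher and 22.8% lower. The share that fell with YAP/TAZ siRNA was near that of all genes. Anxa2, a membrane-binding annexin, differed most, by -5.22 ± 0.04 in 2i and -4.35 ± 0.04 with YAP/TAZ siRNA. P4ha2 and Stc2 were also lower in both comparisons with PD-only control, with differences of -1.52 ± 0.05 and -1.53 ± 0.05 for P4ha2, a collagen prolyl hydroxylase. Bhlhe40, a transcriptional repressor, and Ankrd37 were higher with YAP/TAZ siRNA than in 2i by 0.85 ± 0.03 and 0.88 ± 0.05. Plin2, a coat protein of lipid droplets, fell by 1.29 ± 0.03 with YAP/TAZ siRNA and differed by 0.02 ± 0.03 between the media.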

How the data were processed

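Biotinylated RNA of 22 samples was measured on Affymetrix mouse arrays, per the labels' protocols. The deposited table gives log2 values that the authors made with RMA, per the submitters' processing notes, with the version not given in the sources used here. RMA makes array distributions alike, so a change in total RNA per cell cannot be seen, and it compresses differences of dim probe sets. Of 45101 probe sets, 34958 had 1 gene symbol in the platform annotation and 932 several, which were left out. RefSeq promoters (GRCm38.p6) were matched by symbol.

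One mean for each of 6 groups of medium and siRNA was fitted across all 18194 genes in limma (3.58.1, under R 4.3.3), leaving 16 residual degrees of freedom, and arms were compared as averages of their siRNA groups. P-values were Benjamini-Hochberg adjusted over all genes. Errors of differences are standard errors. Single probe sets were fitted together in a separate run, adjusted over all of them. The labels call arrays biological replicates without naming separate days, so p-values may measure only the spread between these arrays. On simulated data 98% to 99% of genes changed by 0.5 (log2) were recovered in each comparison, with 7 to 14 false calls. Only 200 of 18194 genes were changed there, far fewer than were called in these data, so these rates may not carry over. Members, lists and tests were chosen with earlier results of these data known. All members are named, with up to 4 called genes of each other list and comparison with the largest difference, and not every one of those is printed. The 6 printed promoters were chosen after values were seen. Replicate letters did not pair the arrays: 2 of 51 same-letter pairs correlated above 0.1 in their deviations from group means. Figures were drawn with matplotlib 3.10.9.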

Additional observations from a re-analysis of the deposited data

Results flagged for a closer look

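In 93 combinations of gene and arm, a lone array was looked for as the highest or lowest value with a wide gap to its neighbour (Dixon's criterion at 95%), and 6 arrays stood out, where chance flags about 1 group in 20. In 3 of them the same array, replicate B of YAP/TAZ siRNA mix 1, was the highest of its arm: Aldoa at 13.82 with the next at 13.71, Pgk1 at 13.94 with the next at 13.90, and Ldhb at 13.16 with the next at 13.09. Replicate D of control siRNA 1 in PD-only medium was lowest for Tpi1, at 12.21 with the next at 12.24. Replicate A of the same group was lowest for Pfkfb4, at 6.40 with the next at 6.62. Replicate C of control siRNA 2 in 2i was lowest for Gapdh, at 13.76 with the next at 13.90. None of the calls of these 6 genes changed when any single array was left out.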

How the results depend on the processing

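Counts of called members kept within 1.5 times of the reported ones under most alternatives, with these exceptions. Requiring a 2-fold change left 0 higher and 5 lower in 2i, 2 higher and 3 lower with YAP/TAZ siRNA, and 3 higher and 0 lower for YAP/TAZ siRNA against 2i, of 1057, 1158 and 275 genes called in all. Leaving out probe sets named as shared or cross-hybridising left 24 members measured and 12 higher with YAP/TAZ siRNA. With the poly-A spike covariate 3 members were lower with YAP/TAZ siRNA than in 2i, and 5533 genes were called there. The spike value did not overlap between these arms, so that fit cannot separate it from the arm. Directions turned for a few genes when other probe sets were used. With the mean of all probe sets Hif1a gave 0.0553 in 2i and Pfkp -0.0847 against 2i. Without those sets Aldoc gave -0.0504 and -0.0408 in the comparisons with PD-only control, and Hif1a gave 0.0329, 0.0667 and, against 2i, 0.0337. None of these values was called.

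Leaving out each array in turn gave 7 to 8 members higher and 17 to 18 lower in 2i (10120 to 10570 genes called in all). It gave 19 higher and 8 to 9 lower with YAP/TAZ siRNA (10764 to 11382 genes), and 24 higher and 5 lower for YAP/TAZ siRNA against 2i (8512 to 8798 genes). The replicate letters did not pair the arrays, and with them as a replicate block 7 members were higher and 18 lower in 2i (10542 genes called), 19 and 9 with YAP/TAZ siRNA (11262 genes) and 24 and 5 against 2i (8715 genes), and no member's call changed. The number of arrays and background at dim genes such as Pdk2 and Eno2 limit the precision.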
